A study of Apis mellifera with 2 samples.

Results

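The nuclei described here are those richest in RNA of VGlut, the vesicular glutamate transporter gene, in 2 single-nucleus libraries of honeybee brain. A barcode entered with 200 to 5000 genes, at least 2 UMIs of VGlut, more VGlut than VAChT UMIs and at least 1 UMI of nSyb. A UMI is a molecular tag that counts 1 captured RNA molecule. VAChT is the vesicular acetylcholine transporter gene and nSyb encodes the neuronal synaptobrevin of synaptic vesicles. The members were thus chosen by their VGlut, VAChT and nSyb counts, which are given below as a description only. Up to 400 barcodes per library were taken in the order of VGlut UMIs over total UMIs. This gave 104 nuclei in the BRC library, which were all that qualified, and 400 of the 421 that qualified in the ddH2O library, or 504 of 40000 barcodes in all.

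The study asked how a dopamine receptor agonist acts on the brain of Apis mellifera carnica foragers. The BRC group came from colonies misted daily with bromocriptine and the control group from colonies misted with double distilled water (ddH2O). The sample titles name feeding in place of spraying. All bees were workers of no stated age, taken as they returned with pollen, and each condition was 1 library of pooled brains with ocelli, compound eyes and tracheae cut away. With 1 library per group, the treatment, the pool, the nuclei preparation and the sequencing cannot be told apart. No test between conditions was therefore possible, and every interval below is a 95% interval of the counting error alone.

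VGlut loads glutamate into synaptic vesicles, so its RNA is the usual mark of neurons that release glutamate. In insects glutamate is the transmitter of motor neurons at the muscle, while acetylcholine is the main excitatory transmitter within the brain. Central glutamate acts on excitatory ionotropic receptors, on G protein-coupled metabotropic receptors and on glutamate-gated chloride channels, which inhibit. Glia take glutamate up through excitatory amino acid transporters and turn it into glutamine.

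In the assembly Amel_HAv3.1, VGlut is LOC410752 on LG1 from 5079755 to 5087805. No other annotated gene overlaps it, and the nearest lies 2115 bases away. VAChT is LOC725064 on LG7 from 8493627 to 8499495, and nSyb is LOC408465 on LG14 from 8280795 to 8318641, where 3 other annotated genes overlap it. The counting was not stated to use strand, so nSyb reads and those of its overlapping genes may be mixed.

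The libraries held 76531513 UMIs in BRC and 77047419 in ddH2O over 20000 barcodes each. The median barcode had 2109 and 3327 UMIs. Of the barcodes, 120 occurred in both libraries. None of them was a VGlut nucleus in both, and 3 ddH2O VGlut nuclei had a barcode that also occurs in BRC. The libraries differed widely before any selection by VGlut. An nSyb UMI was found in 11048 of 19945 BRC nuclei with 200 to 5000 genes (55.4%) and in 19812 of 19999 ddH2O nuclei (99.1%). Markers of gland and eye were also more abundant in the BRC library, as given below.

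VGlut itself was sparse. Levels are given as CPM, the summed UMIs of a gene over all UMIs of the nuclei, scaled to 1000000. Summed over all nuclei with 200 to 5000 genes it reached 15.8 CPM in BRC (14.9 to 16.7) and 59.1 in ddH2O (57.4 to 60.8). Among nuclei with nSyb the levels were 24.1 and 59.3 CPM, so part of the gap went with the smaller share of nuclei with nSyb in BRC. All conditions were met by 0.521% of BRC nuclei (0.426% to 0.631%) and by 2.11% of ddH2O nuclei (1.91% to 2.31%). Taken over nuclei with nSyb the shares were 0.941% and 2.12%. Fewer such neurons and less VGlut RNA per nucleus cannot be told apart in these shares.

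The step that removed most nuclei was the VGlut minimum. At least 2 VGlut UMIs were held by 126 BRC and 481 ddH2O nuclei, and the nSyb condition then removed 3 and 0. The VAChT condition removed 19 and 60 more. The limit of 400 left no BRC nucleus and 21 ddH2O nuclei outside. The last ddH2O nucleus taken had 2 VGlut UMIs among 8312 (0.0241%), and the first left out had 2 among 8437 (0.0237%). The lowest of those left out had 2 among 13516 (0.0148%). In BRC the order ran from 2 VGlut UMIs among 1171 (0.171%) to 2 among 25796 (0.00775%), so BRC members included deeper nuclei than any taken from ddH2O.

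Most members rested on the minimum of the rule. Of the BRC nuclei, 91 of 104 (87.5%) had exactly 2 VGlut UMIs, 10 had 3, 2 had 4 and 1 had 6. Of the ddH2O nuclei, 358 of 400 (89.5%) had 2, 40 had 3 and 2 had 4. With VGlut UMIs nearly fixed, the order within a library was mainly an order of depth. The median VGlut share was 0.0704% of UMIs in BRC and 0.0532% in ddH2O.

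**Figure D1:**
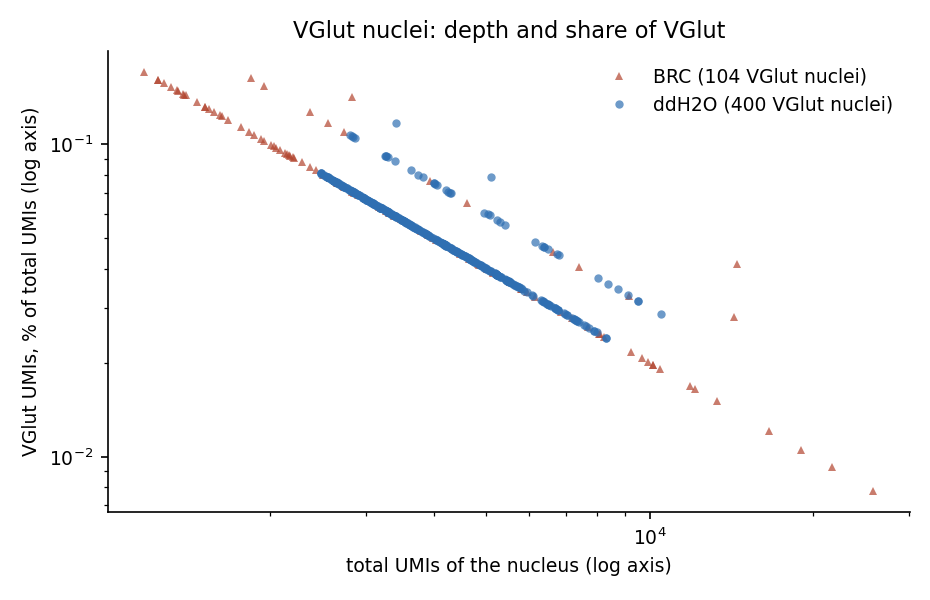
VGlut share of all UMIs (percent, log axis) against total UMIs (log axis) for each VGlut nucleus, with triangles for the 104 BRC and circles for the 400 ddH2O nuclei. Points fall on lines of equal VGlut UMIs, most of them on the line of 2 UMIs, and BRC nuclei extend to both fewer and more total UMIs than ddH2O nuclei.

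Members had a median of 2874.5 UMIs in BRC (1171 to 25796) and 3973.5 in ddH2O (2475 to 10490), with 1348.5 and 1752 genes. The remaining nuclei with nSyb, called other neurons below, had medians of 2237.5 and 3321 UMIs. Members were deeper than other neurons in each library. In ddH2O, where nearly every nucleus had an nSyb UMI, the other neurons were nearly the whole library and included glial nuclei, with repo at 393 CPM. The median mitochondrial share of members was 0.0624% in BRC and 0.0602% in ddH2O.

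How VGlut UMIs were spread over nuclei differed between the libraries. Had the VGlut UMIs of all nuclei with nSyb been spread evenly in proportion to depth, 98.2 BRC nuclei would have held at least 2, against 123 that did. In ddH2O the even spread gave 493.6 nuclei, against 481 that did. For at least 3 UMIs the counts were 17 against 14.8 in BRC and 48 against 53.9 in ddH2O. The ratio of the variance of VGlut counts to that of the even spread was 1.88 in BRC and 1.05 in ddH2O. In ddH2O the VGlut UMIs were thus distributed nearly as depth alone would place them, and the nuclei with at least 2 were no more numerous than under that spread.

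**Figure D2:**
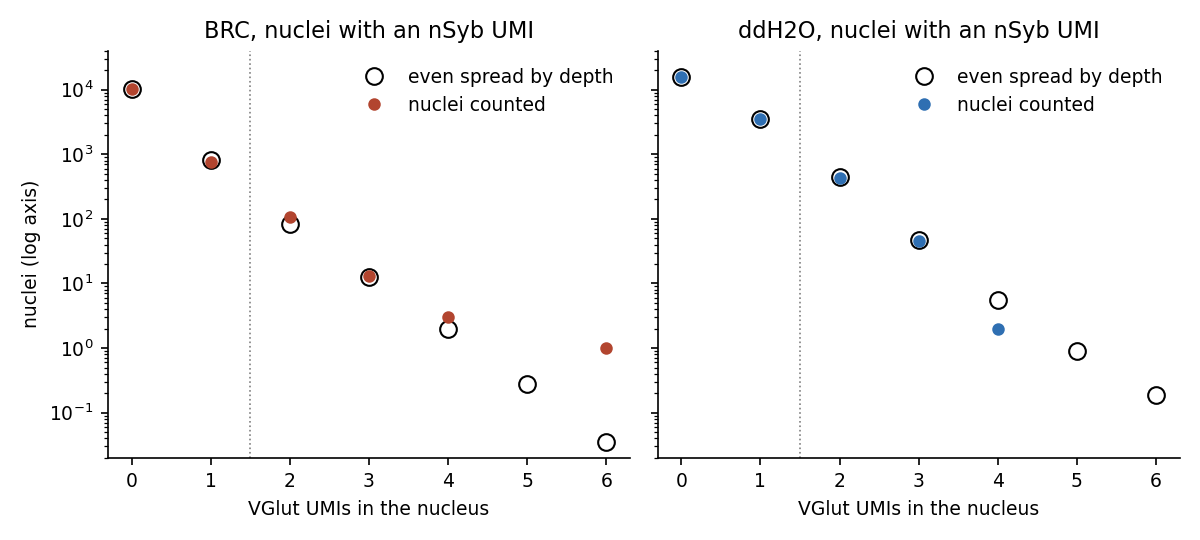
Number of nuclei with nSyb (log axis) by their VGlut UMIs in BRC and ddH2O, filled points for nuclei counted and open circles for an even spread of the same UMIs by depth. The dotted line marks the minimum of 2 UMIs, above which BRC held 123 nuclei against 98.2 and ddH2O 481 against 493.6.

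Other genes measured in the same way gave a rough scale for these ratios, which rise with the level of a gene at the same relative unevenness. VAChT had ratios of 1.98 in BRC and 1.23 in ddH2O. Lim1, a homeobox transcription factor used as an optic lobe marker, had 1.37 and 1.27. Repo, the transcription factor of glial identity, had 8.62 and 2.84, and vsx1, a homeobox factor of optic lobe cells, had 2.40 and 1.43. VGlut had the lowest ratio of the 9 genes measured in ddH2O, and only Lim1 was lower in BRC. Lim1 however had 17 ddH2O nuclei with at least 3 UMIs against 0.453 for an even spread, whereas VGlut showed no excess there.

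VGlut RNA also occurred outside members. A VGlut UMI was present in 7.19% of BRC and 18.5% of ddH2O other neurons, at 19.0 and 49.4 CPM. Nuclei with at least 2 repo UMIs and no nSyb UMI are called glial nuclei. Of these, a VGlut UMI was present in 0.737% (0.393% to 1.26%) of 1763 in BRC and 11.3% (6.31% to 18.2%) of 124 in ddH2O. Their median depths were 1890 and 3150.5 UMIs. With each nucleus thinned to 1000 UMIs, a VGlut UMI remained in 0.06% of BRC and 4.03% of ddH2O glial nuclei, against 3.20% and 5.32% of other neurons. In ddH2O the thinned interval of the 124 glial nuclei (1.32% to 9.16%) held the share of other neurons, whereas unthinned the glial share and level, 29.1 CPM (15.9 to 48.9), were lower than those of other neurons. The ddH2O glial nuclei held 14 VGlut UMIs and also neuronal RNA, with brp at 1726 CPM and Para at 1360. The source of their VGlut UMIs was not tested.

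VGlut followed the neuronal content of nuclei. Nuclei of each library were put into 5 equal bins by their summed level of the neuronal genes fne, Syt1, brp, Para and Cac. In BRC, VGlut was 1.23, 2.17, 9.34, 43.2 and 52.1 CPM from the lowest to the highest bin. In ddH2O it was 31.5, 57.2, 65.5, 71.8 and 75.1 CPM. VAChT went from 2.59 to 94.0 CPM in BRC and from 85.6 to 154 in ddH2O, and repo was 54.6 and 132 CPM in the highest bin. The libraries were closer in the top bins than in the lowest bins.

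**Figure D3:**
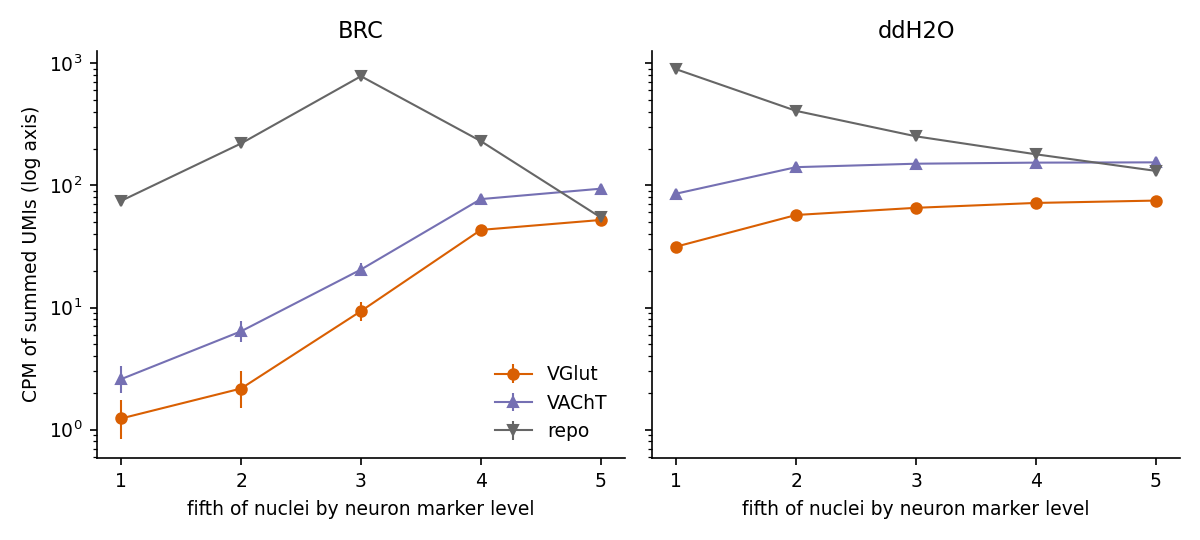
Level of VGlut, VAChT and repo (CPM of summed UMIs, log axis, bars for 95% counting intervals) over 5 bins of nuclei ordered by the level of neuronal genes in BRC and ddH2O. VGlut went from 1.23 to 52.1 CPM in BRC and from 31.5 to 75.1 CPM in ddH2O.

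The overlap of VGlut with VAChT was also described before the VAChT condition was applied. Among the nuclei with nSyb and at least 2 VGlut UMIs, 39.8% (31.1% to 49.1%) of 123 in BRC and 43.9% (39.4% to 48.4%) of 481 in ddH2O had a VAChT UMI. Nuclei of like depth with no VGlut UMI had one in 8.94% (4.55% to 15.4%) and 42.2% (37.7% to 46.8%). The matched BRC nuclei were also less neuronal, with fne in 74.0% against 95.9% and Nmdar1 in 17.9% against 56.1%. After thinning the VAChT shares were 13% (7.62% to 20.3%) against 5.69% (2.32% to 11.4%) in BRC, with overlapping intervals, and 13.7% against 14.3% in ddH2O. These shares rest on the genes of the rule and are a description only. These genes did not exclude each other in either library.

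The name glutamatergic neurons was checked against markers. Fne, an RNA-binding protein of neurons, had a UMI in 99 of 104 BRC and in all 400 ddH2O members, and thinned shares of 85.6% and 86.5%. In the glial nuclei the thinned shares of fne were 12.1% and 46.8%. Members needed an nSyb UMI and glial nuclei had none, so this gap was partly set by the choice of nuclei. Nuclei with nSyb and no VGlut UMI had thinned fne shares of 54.6% in BRC and 81.9% in ddH2O. A glutamatergic identity rested on VGlut alone, which the rule used, and with a single marker no cell type name was given. The nuclei are called VGlut nuclei below.

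Glial markers were lower in VGlut nuclei than in other neurons. Of 12 glial genes with at least 20 UMIs in members, 10 were lower in BRC, 5 of them at least 2-fold, and 12 were lower in ddH2O, none of them 2-fold. Of all genes tested, 11.3% were at least 2-fold lower in BRC and 4.26% in ddH2O. The median log2 ratios were −0.83 and −0.57, beside −0.07 and −0.05 over the 9280 genes tested. Repo was 99.4 CPM in BRC members (73.8 to 131) and 183 in other neurons, and 211 (190 to 233) against 393 in ddH2O. The summed level of all 13 glial genes was 1628 CPM in BRC and 2139 in ddH2O members, 2529 and 3186 in other neurons, and 11740 and 7150 in the glial nuclei. Nuclei richest in VAChT, described below, had 8 of the 12 genes lower than other neurons in BRC and 11 in ddH2O. Their medians were −0.35 and −0.47 and their sums 1905 and 2458 CPM, so low glial markers were shared with them. None of the 13 glial genes was at 0 in members. A repo UMI was still found in 18.3% of BRC and 45.5% of ddH2O members, and in 6.73% and 17.8% after thinning.

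Genes of the glutamate receptors were all higher in VGlut nuclei than in other neurons of the same library. In BRC the 4 measured genes were 0.68 to 1.98 higher on the log2 scale, 3 of them at least 2-fold, and in ddH2O they were 0.05 to 0.29 higher, none of them 2-fold. Across all 9280 tested genes, 6.71% were at least 2-fold higher in BRC and 0.269% in ddH2O. The median of the receptors was 1.31 in BRC and 0.23 in ddH2O.

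Nmdar1, the obligatory subunit of NMDA receptors, was 288 CPM in BRC VGlut nuclei (243 to 339) and 314 in ddH2O (288 to 342). In other neurons it was 73.2 and 258 CPM. VGlut nuclei exceeded other neurons by a log2 ratio of 1.98 in BRC (1.73 to 2.22) and of 0.29 in ddH2O (0.16 to 0.41). Members of both libraries thus stood at overlapping levels, and the larger ratio in BRC went with a lower level in its other neurons.

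Glurb, a further glutamate receptor gene, followed the same pattern in the main comparison, although its ddH2O ratio ranged from −0.19 to 0.43 over the alternatives tried. It was 761 CPM in BRC members (687 to 842) and 791 in ddH2O (750 to 834), against 259 and 666 in other neurons, with log2 ratios of 1.55 (1.40 to 1.70) and 0.25 (0.17 to 0.33). GluCl encodes the glutamate-gated chloride channel, which carries inhibition by glutamate in insects. It was 1529 CPM in BRC (1422 to 1641) and 2413 in ddH2O members (2340 to 2487), against 726 and 2069 in other neurons. Its log2 ratios were 1.07 (0.97 to 1.18) and 0.22 (0.18 to 0.27). The metabotropic receptor gene mGlutR1 was scarcer, at 69.6 CPM in BRC and 134 in ddH2O members against 43.4 and 129, and its ddH2O ratio of 0.05 had an interval from −0.14 to 0.24.

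The receptor levels moved with the neuronal content of the nuclei compared. The 3 neuronal genes fne, Syt1 and brp, of which Syt1 encodes the calcium sensor of vesicle release and brp an active zone protein, summed to 3942 CPM in BRC members and 1929 in BRC other neurons, and to 5917 and 5211 in ddH2O. Against BRC other neurons that also had a UMI each of fne and Syt1, the log2 ratio fell to 1.27 for Nmdar1, 1.04 for Glurb and 0.40 for GluCl. With nuclei of every class thinned to 1000 UMIs it was 1.35, 0.95 and 0.65. Nmdar1 stayed at least 1.27 higher in BRC under all 14 alternatives, whereas GluCl went below a 2-fold difference. Some of the alternatives could not change a BRC ratio. Taking 200 nuclei, dropping the limit of 400 or matching ddH2O to BRC numbers kept the same 104 BRC members and 10944 other neurons. The lower UMI minimum changed only which genes were counted.

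Shares of nuclei were also compared. After thinning, Nmdar1 was found in 21.2% of BRC members (13.8% to 30.3%), 17.4% of VAChT nuclei, 9.23% of other neurons and 1.64% of glial nuclei. In ddH2O the shares were 26.8% (22.5% to 31.4%), 23.2%, 22.5% and 10.5%. Without thinning a Nmdar1 UMI was found in 51.9% of BRC and 67.8% of ddH2O members. The members thus differed from other neurons in BRC, and in ddH2O the interval of the thinned share overlapped that of other neurons (21.9% to 23.1%).

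The most similar nuclei were those richest in VAChT, taken by the mirrored rule, 321 in BRC and 400 of 2033 that qualified in ddH2O. They had medians of 3830 and 2820.5 UMIs. Nmdar1 was 193 CPM there in BRC and 287 in ddH2O, so VGlut nuclei were 0.58 (0.29 to 0.86) and 0.13 (−0.07 to 0.33) higher on the log2 scale. Glurb was 666 and 784 CPM and GluCl 1540 and 2388 CPM in VAChT nuclei. The ratios of VGlut to VAChT nuclei were 0.19 (0.02 to 0.36) and 0.01 (−0.11 to 0.13) for Glurb, and −0.01 (−0.13 to 0.11) and 0.01 (−0.05 to 0.08) for GluCl. For GluCl both intervals lay well inside a 2-fold difference. The 4 receptor genes had medians of 0.20 and 0.07 against VAChT nuclei. VAChT nuclei themselves had all 4 higher than other neurons in BRC, 3 of them 2-fold, with a median of 1.22, and 3 of 4 higher in ddH2O with a median of 0.18. Among all genes, 5.1% were 2-fold higher and 7.95% lower in VAChT nuclei than in other neurons in BRC, and 0.668% and 4.88% in ddH2O. High receptor levels were therefore shared with VAChT nuclei.

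Members were also described by their VGlut UMIs, which the rule used, so that the values support nothing further. The 13 BRC nuclei with at least 3 VGlut UMIs had 482 CPM of Nmdar1 (337 to 667) and the 91 with 2 had 254 (209 to 307). In ddH2O the 42 nuclei with at least 3 had 372 CPM (296 to 461) and the 358 with 2 had 305 (278 to 335), and these intervals overlapped. GluCl was 2101 against 1429 CPM in BRC and 2502 against 2399 in ddH2O. The nuclei with at least 3 UMIs were also deeper, with medians of 3938 against 2854 UMIs in BRC and 4625.5 against 3863.5 in ddH2O.

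Of the genes that supply or clear glutamate, only GlnS, Eaat-1 and Eaat-2 were measured, and none had an interval above 0 against other neurons. Glutaminase, glutamate dehydrogenase and aspartate aminotransferase were not among the genes measured. GlnS, glutamine synthetase, was 507 CPM in BRC members (447 to 573) and 482 in ddH2O (449 to 516), against 450 and 554 in other neurons. Eaat-1, an excitatory amino acid transporter, was 99.4 and 99.2 CPM in members and 134 in other neurons of each library. Eaat-2, a second transporter of this family, was 15.9 CPM from 8 UMIs in BRC and 61.5 in ddH2O, against 26.4 and 85.9. In ddH2O all 3 genes were lower in members with intervals below 0, and in BRC this held for Eaat-1 alone. In the glial nuclei GlnS was higher than in members, at 2588 CPM in BRC and 624 in ddH2O, with a far smaller gap in ddH2O. The ddH2O glial nuclei also held neuronal RNA, with fne, Syt1 and brp summing to 3074 CPM.

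Genes of the presynaptic terminal were higher in members in BRC. All 6 measured were higher there, 3 of them at least 2-fold beside 6.71% of all genes, with a median of 0.89 on the log2 scale. In ddH2O 5 of 6 were higher and none 2-fold, beside 0.269% of all genes, with a median of 0.17. Nrx-1, a synaptic adhesion protein of the neurexin family, was 1292 CPM in BRC members and 1266 in ddH2O, against 472 and 1045 in other neurons. Syx1A, the syntaxin of vesicle fusion, was 833 and 865 CPM, against 688 and 890, and its BRC ratio ranged from −0.25 to 0.36 over the alternatives. VAChT nuclei gave medians of 0.91 and 0.21 against the same other neurons, so the presynaptic genes did not set VGlut nuclei apart from VAChT nuclei.

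**Figure D4:**
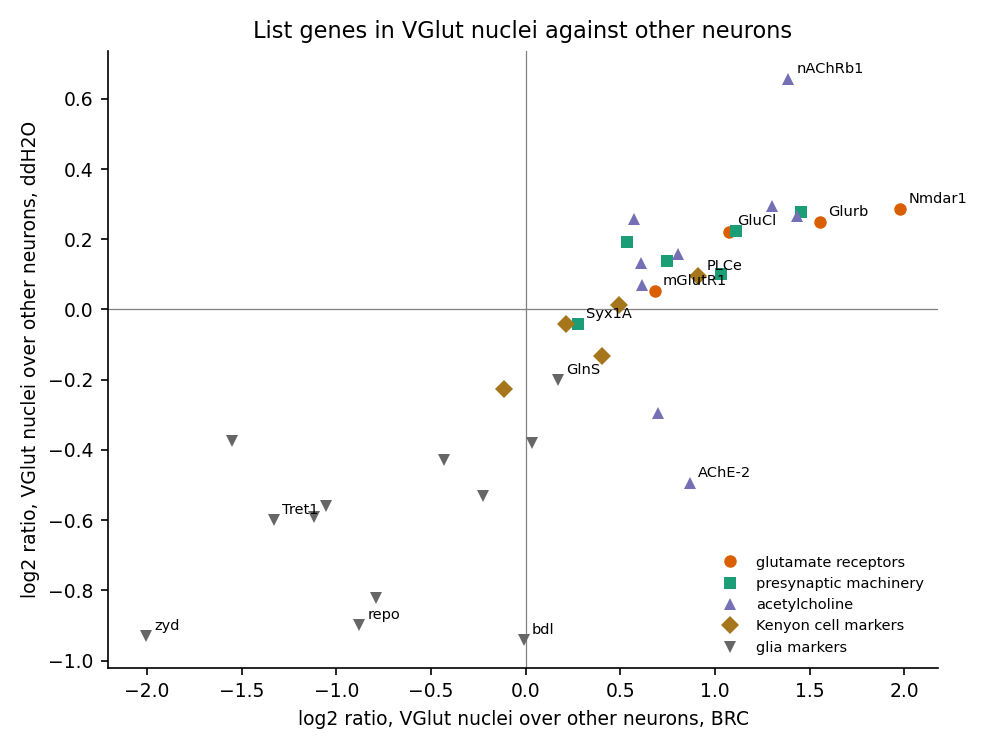
Log2 ratio of VGlut nuclei to other neurons in BRC (x axis) and ddH2O (y axis) for list genes with at least 20 UMIs in members, each symbol a gene and each colour a list. Glutamate receptors lie at 0.68 to 1.98 in BRC and 0.05 to 0.29 in ddH2O, glial genes mostly lie below 0 in both, and AChE-2 lies at 0.87 and −0.49.

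Receptors for other transmitters were present too. Of 9 acetylcholine genes other than VAChT, 9 were higher than in other neurons in BRC, 3 of them 2-fold, and 7 in ddH2O, none of them 2-fold, with medians of 0.80 and 0.16. Of all genes tested, 6.71% and 0.269% were 2-fold higher. VAChT nuclei shared this, with 9 higher in BRC, 5 of them 2-fold beside 5.1% of all genes. In ddH2O they had 6 higher and none 2-fold, and the medians were 1.14 and 0.11. nAChRa4, a nicotinic receptor subunit, was 1391 and 1201 CPM in members and 515 and 999 in other neurons. nAChRb1, a further nicotinic subunit, had 5 UMIs in BRC and 33 in ddH2O members, at 9.94 and 19.2 CPM against 3.8 and 12.1. Its log2 ratios were 1.39 (−0.26 to 2.64) and 0.66 (0.11 to 1.16), the highest of the list in ddH2O. AChE-2, an acetylcholinesterase gene, was 1010 CPM in BRC members against 554 in other neurons, and 1486 against 2093 in ddH2O, so its direction differed between the libraries. Of 3 GABA genes, 2 were higher than in other neurons in BRC and 1 in ddH2O, with medians of 0.03 and −0.38. The higher one in both was LCCH3, a subunit of GABA-gated channels, at 113 against 31.7 CPM in BRC and 200 against 172 in ddH2O. Gat-1B, a GABA transporter gene also listed for glia, was 37.8 against 65.2 CPM and 85.9 against 152.

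The aminergic genes included the receptor that BRC targets. Dop3, the D2-like dopamine receptor, was 483 CPM in BRC (424 to 548) and 523 in ddH2O members (490 to 559), against 293 and 501 in other neurons. Dop1, a D1-like receptor, was 223 and 234 CPM, against 116 and 230. The serotonin receptor gene 5-HT1 was 646 and 689 CPM, against 323 and 569. Vmat, which loads monoamines into vesicles, was lower than in other neurons, at 201 against 476 CPM in BRC and 40.6 against 65.7 in ddH2O. Of the 11 aminergic genes measured, 9 were higher than in other neurons in BRC and 7 in ddH2O, with medians of 0.79 and 0.06. VAChT nuclei had 9 higher in BRC and 5 in ddH2O, with medians of 0.88 and −0.18. Their Vmat was also low, at 173 and 35.2 CPM.

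Neuropeptide genes were mostly sparse. Tk, the tachykinin precursor, was 352 CPM in BRC and 353 in ddH2O members, against 168 and 350 in other neurons. Apime-ASTA, the allatostatin A precursor, had 5 UMIs in BRC and 26 in ddH2O members, at 9.94 CPM (3.23 to 23.2) and 15.1 (9.86 to 22.1) against 1.03 and 8.88. Its log2 ratios were 3.27 (1.57 to 4.60) and 0.77 (0.14 to 1.33), which is a large range from few UMIs. The neuropeptide genes Crz, NPF and Pban had no UMI in BRC members, which allows up to 3 UMIs of 503157.

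Among 10 transcription factors measured, 4 were higher than in other neurons in BRC and 5 in ddH2O, with medians of −0.34 and −0.10. Lim1 had 34 UMIs in 26 ddH2O members (6.50%, 4.29% to 9.38%), at 19.7 CPM (13.7 to 27.6), against 10.5 in other neurons and 3.20 in VAChT nuclei. The log2 ratio was 0.91 (0.37 to 1.41) to other neurons and 2.63 (1.14 to 4.58) to VAChT nuclei. In BRC it had 3 UMIs in 3 members, at 5.96 CPM against 3.97 and 3.31, too few for a direction. After thinning, Lim1 was found in 8 of 400 ddH2O members and in none of 104 in BRC, which is near the level of 1 UMI. Dll, a homeobox gene known for appendage patterning, was lower than in other neurons, at 71.6 against 261 CPM in BRC and 175 against 351 in ddH2O, but without nuclei that had glial UMIs or very high depth its ddH2O ratio was 0.03. Dll was also 904 and 1083 CPM in the glial nuclei. Against VAChT nuclei all 10 factors were higher in ddH2O, with a median of 0.43, and 5 of 10 in BRC, with a median of 0.00.

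Members were not a uniform group. Over 3384 genes with enough UMIs, the median ratio of the variance among members to that of an even spread was 1.10 in BRC and 1.07 in ddH2O. Hth, the homothorax homeobox gene, stood far above it with 18.2 and 6.47. The tenth of members richest in hth held 81.8% of its UMIs in BRC and 61.5% in ddH2O, and single nuclei held up to 201 and 35 UMIs. PLCe, a phospholipase C gene used as a Kenyon cell marker, had ratios of 71.2 and 20.1 and ranged from 0 to 279 UMIs a nucleus in BRC and from 0 to 117 in ddH2O. Glurb had 12.8 and 4.55, with up to 54 and 43 UMIs and a median of 0 and 2. Nmdar1 had 1.83 and 1.19. At the same relative unevenness this ratio rises with the level of a gene. In BRC members PLCe was 6669 and Nmdar1 288 CPM, so the ratios do not rank these genes by unevenness. The uneven genes PLCe and hth mark different parts of the bee brain, the mushroom bodies and the optic lobes.

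The Kenyon cell and optic lobe markers were given for the whole set. Of the 5 Kenyon cell genes, 4 were higher in members than in other neurons in BRC and 2 in ddH2O, with medians of 0.41 and −0.04. PLCe was 6669 CPM in BRC and 5526 in ddH2O members, against 3550 and 5177. Of 7 optic lobe genes, 5 and 4 were higher, with medians of 0.72 and 0.03, and vsx1 was 71.6 against 24.0 CPM in BRC and 106 against 90.0 in ddH2O. Several of these genes were also plentiful in the glial nuclei of BRC, with hth at 1133, svp at 824 and mub at 1496 CPM, whereas PLCe was 286 and vsx1 3.54 CPM there. The rarest rested on 2 UMIs (bsh) and 3 UMIs (Lim1) in BRC members. The 2 markers of olfactory projection neurons summed to 23.9 CPM in BRC and 24.4 in ddH2O members. The 7 muscle genes summed to 83.5 and 36.6 CPM, with 3 of them at 0 in BRC.

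Over all genes, few separated VGlut nuclei from other neurons in both libraries. Of 9280 genes tested, 1 was at least 2-fold higher in both (0.0108%) and 119 were at least 2-fold lower in both (1.28%). The gene was LOC551621, named after its values were seen, with 5 UMIs in BRC and 14 in ddH2O members and log2 ratios of 1.85 (0.21 to 3.12) and 1.02 (0.14 to 1.79). With at least 20 UMIs in members of each library, 0 of 3532 genes were higher and 8 were lower (0.227%). Within BRC 623 genes (6.71%) were at least 2-fold higher and 1048 (11.3%) lower, against 25 (0.269%) and 395 (4.26%) in ddH2O.

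Ranked by the smaller of its ratios in both libraries, LOC412926 came highest, with 2703 against 1085 CPM in BRC and 7152 against 4614 in ddH2O, or log2 ratios of 1.32 (1.24 to 1.39) and 0.63 (0.61 to 0.66). LOC410801 came lowest, with 23.9 against 80.7 CPM and 37.7 against 119, or −1.76 (−2.71 to −0.95) and −1.65 (−2.03 to −1.30). The files and the reference give no name to either. Named genes were absent from the 10 that ranked highest and the 10 that ranked lowest in this comparison.

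Against VAChT nuclei, no gene passed a 2-fold difference in both libraries. Of 3159 genes tested, 0 were higher and 0 lower in both (0%), 5 were higher (0.158%) and 45 lower (1.42%) in BRC, and 3 (0.095%) each way in ddH2O. The medians were −0.01 and −0.04. The rule genes VGlut and VAChT were kept out of these counts. Among the 10 lowest by rank were mitochondrial RNAs. CYTB, a subunit of complex III, was 27.8 against 78.2 CPM in BRC and 38.3 against 67.2 in ddH2O. COX2, a subunit of complex IV, was 233 against 382 CPM and 153 against 240. The median mitochondrial share was 0.0811% of UMIs in BRC and 0.0791% in ddH2O VAChT nuclei, above the members' 0.0624% and 0.0602%. The part of this share in the difference was not tested.

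The VGlut nuclei of BRC and ddH2O were then set side by side. Of 3283 genes tested, 136 (4.14%) were at least 2-fold higher in BRC and 224 (6.82%) at least 2-fold lower, with a median of −0.14 over all genes. Median-of-ratios scaling raised the ratios by 0.14 on the log2 scale and gave 168 higher and 164 lower, and with as many ddH2O as BRC nuclei, an alternative chosen after seeing the data, 110 were higher and 70 lower. The excess of lower genes did not hold in these alternatives. It remained with the study's filters added (80 higher, 208 lower) and thinned to 1000 UMIs (29 and 56), but not at matched depth (54 and 40). In other neurons the same genes gave 242 (7.37%) and 590 (18%), with a median of −0.22. BRC members had a lower median depth, at 2874.5 against 3973.5 UMIs, but reached up to 25796 against 10490. The deepest nuclei weigh most in summed UMIs. The identity of a library cannot be told apart from the treatment.

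The 4 glutamate receptors had log2 ratios below 0 in members. The log2 ratio of BRC to ddH2O was −0.12 (−0.40 to 0.14) for Nmdar1, −0.06 (−0.22 to 0.11) for Glurb, −0.66 (−0.77 to −0.55) for GluCl and −0.95 (−1.50 to −0.43) for mGlutR1. In other neurons the same ratios were −1.81, −1.36, −1.51 and −1.58. All 4 were at least 2-fold lower in BRC there, beside 18% of all genes, and none was in VGlut nuclei, beside 6.82%. VAChT nuclei also stayed under 2-fold, with Nmdar1 at 193 CPM in BRC and 287 in ddH2O and Glurb at 666 and 784. GluCl was 1540 and 2388 CPM there, and mGlutR1 60.1 and 108. The neuronal genes fne, Syt1 and brp had medians of −0.74 in members and −1.56 in other neurons. The intervals of Nmdar1 and Glurb in members lay inside a 2-fold difference either way, and over the alternatives the ratios ranged from −0.31 to 0.37 and from −0.30 to 0.49. Eaat-2 was lower in BRC in members and other neurons alike, at −1.95 (−3.20 to −0.92) and −1.70.

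The study read dopamine signalling from Dop3 and PKA-c1 by quantitative PCR of pooled brains. It reported Dop3 higher and PKA-c1 lower with BRC. In the nuclear RNA of members both were near equal. Dop3 had a log2 ratio of −0.12 (−0.33 to 0.09) and PKA-c1, the protein kinase A catalytic subunit, of 0.06 (−0.09 to 0.21). In other neurons they were −0.78 and −0.48, beside a median of −1.56 for fne, Syt1 and brp. The direction of Dop3 there differed from the study's report. The study measured whole-brain RNA relative to GAPDH, so its values and these nuclear ratios are not directly comparable. VAChT nuclei were also close, with Dop3 at 452 CPM in BRC and 443 in ddH2O and PKA-c1 at 875 and 955. VAChT and nSyb, which the rule used, are not compared.

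The named genes among the 10 highest in BRC members are known from other tissues. Mrjp6, a major royal jelly protein of the hypopharyngeal glands, had 631 UMIs in BRC members against 4 (9.08 on the log2 scale, 7.71 to 10.96). Hbg3, an alpha-glucosidase of the glands, had 886 against 38 UMIs (6.32, 5.85 to 6.83), and CPR14, a cuticle protein gene, 96 against 4 (6.36, 4.96 to 8.27). Lop1, the long-wavelength opsin of the eye, had 613 against 12 UMIs (7.45, 6.64 to 8.41). They were also higher in BRC in other neurons, with log2 ratios of 8.05, 6.99, 6.26 and 6.67.

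Both lists moved as wholes. Of 8 gland genes, 8 were higher in BRC members, 7 of them at least 2-fold, with a median of 3.54. Of 5 photoreceptor genes all were at least 2-fold higher, with a median of 6.30. Of all genes tested, 4.14% were at least 2-fold higher in BRC members. The gland genes summed to 8305 CPM in BRC and 699 in ddH2O members, and to 9885 and 813 in other neurons. The photoreceptor genes summed to 1606 and 31.9 CPM in members. A Lop1 UMI was found in 86.5% of BRC members, 87.0% of other neurons and 80.9% of glial nuclei, and in 2.50% of ddH2O members. A Mrjp6 UMI was found in 78.8% of BRC members and 77.7% of BRC glial nuclei. Glial nuclei had shares near those of members, so the shares are not read as particular to VGlut nuclei or as their own expression. The level was not uniform over classes, since Mrjp6 was 1254 CPM in BRC members, 606 in VAChT nuclei and 760 in glial nuclei. In BRC, 7 of 8 gland genes were higher in members than in VAChT nuclei, 1 of them 2-fold, beside 0.158% of all genes. The source of this RNA was not tested.

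Of the genes with a brain role, hth was higher in BRC members, at 1362 CPM (1262 to 1468) against 402 (373 to 433), a log2 ratio of 1.76 (1.60 to 1.91). In other neurons hth was 3447 against 393 CPM, a ratio of 3.13. A few nuclei set the level in BRC members, as given above, with 1 nucleus holding 201 of 685 UMIs. Among members with at least 3 VGlut UMIs the ratio was −2.04, so its direction was not kept there. Without nuclei that had glial UMIs or very high depth the ratio was 0.55. Vmat was 2.31 (1.85 to 2.77) higher in BRC members and 2.86 higher in BRC other neurons. One BRC nucleus held 43 of the 101 Vmat UMIs, and the ratio was 0.53 without nuclei that had glial UMIs or very high depth. The gene lowest in BRC members was LOC408299, with 6 UMIs against 228 (−3.47, −4.93 to −2.33), and −1.35 in other neurons.

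**Figure D5:**
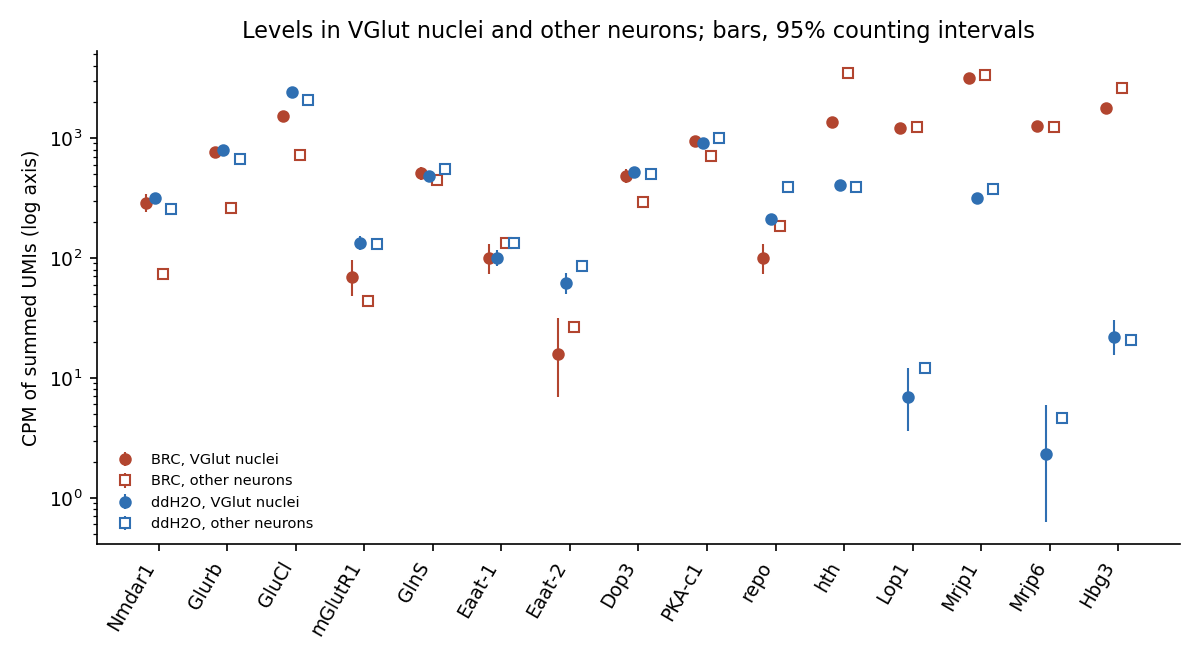
Level of named genes (CPM of summed UMIs, log axis, bars for 95% counting intervals) in VGlut nuclei (filled circles) and other neurons (open squares) of BRC (red) and ddH2O (blue). Nmdar1 lies at 288 and 314 CPM in members and at 73.2 and 258 in other neurons, while Mrjp6 lies at 1254 and 2.32 CPM in members.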

How the data were processed

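The authors deposited whole UMI counts per gene and barcode from Cell Ranger, without normalization, from a 3' kit aligned to Amel_HAv3.1. The matrix headers name version 7.2.0 (BRC) and version 7.0.1 (ddH2O), and the submitters' processing notes name 7.0.1. The series text gives 15 foragers per group and the methods 30 pooled brains. The 12245 genes listed in both of the 2 files were used.

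UMIs were summed over nuclei and expressed as CPM. Intervals were exact Poisson for levels, exact conditional for ratios and Clopper-Pearson for shares. Genes needed 100 UMIs over the sides compared, and a log2 ratio of at least 1 either way counted. For comparisons within a library, both libraries had to pass. A count of 0 gives a floor of 3 UMIs. Shares were compared after thinning to 1000 UMIs. The intervals cover counting error only. No doublet caller was run, nuclei were not clustered, and steps were tested on simulated data.

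The members, lists and comparisons were chosen with earlier results of these data known. List genes with at least 20 UMIs in members of either library, the 10 highest and 10 lowest genes of each comparison and the 10 most uneven genes could be named, with at most 2 unannotated identifiers higher and 2 lower. Python 3.11.15, numpy 2.4.6, scipy 1.17.1, pandas 2.3.3 and matplotlib 3.10.9 were used.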

Additional observations from a re-analysis of the deposited data

Results flagged for a closer look

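A few list genes stood out because the intervals of their log2 ratio lay on opposite sides of 0 in the 2 libraries, and the difference between libraries was not tested. Against other neurons these were AChE-2, an acetylcholinesterase gene, with 0.87 in BRC and −0.49 in ddH2O, and PKA-c1 with 0.41 and −0.13. AChE-2 was 3030 and 4710 CPM in the glial nuclei of BRC and ddH2O.

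Against VAChT nuclei there were 2 serotonin receptor genes, 5-HT2beta with −0.95 in BRC and 0.71 in ddH2O and 5-ht7 with −0.57 and 0.36. The tachykinin precursor Tk had 0.52 and −0.26. The transcription factors Dll and Foxp had −1.32 and 0.35, and −0.25 and 0.21. The neuronal gene fne had −0.14 and 0.13. The Kenyon cell markers PLCe and mub had 0.28 and −0.06, and 0.13 and −0.15, and the gland gene Mrjp1 had 0.20 and −0.38. All of these but Dll were below a 2-fold difference in each library.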

How the results depend on the processing

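No paired analysis was possible because each condition was 1 library. Of the values of 76 named genes under up to 14 alternatives, 3673 stayed within the counting interval of the reported value, 1073 lay outside it, and 20 values of 14 ratios that were at least 2-fold changed sign. Among the ratios under 2-fold, 513 of these values, from 214 ratios, also had the opposite sign, such as AChE-2 in BRC against ddH2O, from −0.56 to 0.34 with at least 3 VGlut UMIs. The cause of the changes was not tested, apart from the fewer nuclei or genes that an alternative leaves. Some alternatives could not change a given ratio, so the 3673 values overstate stability. The minimum of 20 UMIs altered only which genes were counted, and all 380 of its values stayed. With the study's filters added, 80 genes were at least 2-fold higher in BRC than in ddH2O members and 2 were higher than in other neurons. With at least 3 VGlut UMIs these counts were 22 and 87, with 30 lower in BRC and 4 lower than in VAChT nuclei, and 0.0652% of BRC and 0.210% of ddH2O nuclei qualified. Without the nSyb condition, 4 were higher than in other neurons and 1 was lower than in VAChT nuclei. With 200 nuclei per library, 113 were lower in BRC, and 13 were higher and 188 lower than in other neurons. Without the limit of 400, 0 were higher than in other neurons. Without nuclei that had glial UMIs or very high depth, 26 were higher and 28 lower in BRC, and 7 and 65 against other neurons. Thinned to 1000 UMIs, 29 and 56, and 3 higher than in other neurons. At matched depth, 54 and 40, and 0 and 12. Median-of-ratios scaling gave 168 higher and 164 lower in BRC, and 5 higher than in other neurons. From 20 UMIs on, 550 and 667 genes differed between conditions, 23 were higher than in other neurons, and 5 were higher and 14 lower than in VAChT nuclei. Chosen after seeing the data, as many ddH2O as BRC nuclei gave 110 higher and 70 lower in BRC and 28 higher than in other neurons, and other neurons with fne and Syt1 gave 0 and 63. Unthinned shares were 51.9% and 67.8% for Nmdar1 in BRC and ddH2O, 93.3% and 100% for GluCl, 68.3% and 81.8% for GlnS, 18.3% and 45.5% for repo, and 95.2% and 100% for fne. The 20 changes of sign among ratios of at least 2-fold were as follows. With at least 3 UMIs, BRC against ddH2O gave −0.44 for TyHyd, −2.04 for hth and 0.15 for tsh, Tk was −0.21 against BRC other neurons, and TyHyd −1.42 and Mrjp6 −0.067 against BRC VAChT nuclei. With 200 nuclei, Mrjp6 was 0.014 against ddH2O other neurons. Without glial or very deep nuclei, BRC against ddH2O gave −0.21 for TyHyd and −1.31 for eya, other neurons gave −0.93 for eya and 0.031 for vkg in BRC and 0.029 for Dll and 0.23 for Mrjp6 in ddH2O, and VAChT nuclei −0.014 for Mrjp6 in BRC. Thinned, BRC against ddH2O gave 0.017 for tsh and 0.23 for vkg, and other neurons 0.16 for vkg in BRC and 0.016 for Blop and 0.47 for Mrjp6 in ddH2O. With as many ddH2O as BRC nuclei, Apime-ASTA was −0.56 against ddH2O VAChT nuclei. Most members hold 2 VGlut UMIs, which limits how far depth resolves them.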
